A study of Mus musculus with 8 samples.

Results

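A set of 10 calcium genes was examined in mature mouse eggs, out of 24860 genes listed per library. The set was fixed by name and covers the channels that release calcium from the egg's store (Itpr1, Itpr2, Itpr3), those that let it in (Trpm7, Cacna1h) with the store sensor and pore of store-operated entry (Stim1, Orai1), the pumps that remove it (Atp2a2, Atp2b1) and a kinase that reads it (Camk2g). Each name was found once among the listed Ensembl genes through its GENCODE M21 symbol. In eggs labelled Esrp1-KO, Trpm7 was 1.99 times and Atp2a2 1.51 times the wild-type level, while Itpr2 was at 0.661 and Atp2b1 at 0.770 of it. The call for Atp2b1 was the least firm, lost in 13 of 23 alternative analyses. Itpr1, Orai1 and Camk2g did not pass the test, and Itpr3, Cacna1h and Stim1 were too low to enter it.

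At fertilization of a mouse egg, a phospholipase C brought by the sperm makes inositol trisphosphate (IP3), which opens IP3 receptors in the endoplasmic reticulum, and the released calcium returns in repeated waves. Entry through channels of the plasma membrane refills the store, pumps of the endoplasmic reticulum (SERCA, the product of Atp2a2 here) take calcium back up, and pumps of the plasma membrane (PMCA, Atp2b1) expel it. The gamma form of calcium/calmodulin-dependent kinase II (Camk2g) turns the waves into exit from the second meiotic arrest, and IP3 receptor 1 is the receptor best known for these waves in mouse eggs.

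The groups were eggs of females labelled Esrp1-KO and eggs of wild-type (WT) females, all C57BL/6, 42 days (6 weeks) old and arrested at metaphase of the second meiotic division (MII). ESRP1 is an RNA-binding protein known for its control of alternative splicing in epithelial cells. There were 4 libraries per group, each made by Smart-seq2 from a tube of 15 directly lysed eggs, and described by the submitters as biological replicates. How the allele was made, and whether a tube held eggs of 1 female, is not given in the sources used here, and p-values cover the variation from tube to tube only. No calcium was measured, and values per gene do not show splicing.

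Levels are FPKM, fragments per kilobase of exon scaled to a fixed library total, as deposited, so genes can be ranked against each other per length. For most values, the length that gave whole reads was that of all annotated exons of a gene together. The transcripts present in the eggs may be shorter, so ranks between genes depend on that length. The read totals worked out from them were 24910433 to 32337966 in Esrp1-KO and 25018182 to 28932109 in WT libraries. Esrp1 (chromosome 4) itself had 3.62, 3.43, 2.31 and 3.83 FPKM in Esrp1-KO libraries, against 17.1, 17.2, 19.5 and 16.2 FPKM in WT libraries. Of the 13 oocyte markers, 12 passed the expression filter, and their summed level was 19520 to 26390 FPKM in Esrp1-KO and 16080 to 20390 FPKM in WT libraries. The sum is mostly H1foo and Oosp1, neither of which passed the test. As higher in Esrp1-KO, 5 of the 12 passed (Nobox, Zp1, Zp2, Zp3 and Ooep), beside 13.9% of all genes tested. Mos alone passed as lower, beside 23.1% of all genes tested, at 108 ± 15.7 FPKM in Esrp1-KO and 204 ± 34.9 FPKM in WT (SD, n = 4 each). The 12 listed markers of cumulus and granulosa cells, the ovarian cells around the egg, summed to 3.51 to 5.20 FPKM in Esrp1-KO and 8.32 to 11.3 FPKM in WT libraries. Most of that sum was Cyp19a1 (1.87 ± 0.39 in Esrp1-KO and 6.10 ± 0.71 FPKM in WT, SD, n = 4 each) and Kitl (1.83 ± 0.19 in Esrp1-KO and 3.27 ± 0.54 FPKM in WT). These were the 2 tested, and both passed as lower (limma adjusted p = 0.00012 and 0.00648), beside 23.1% of all genes tested. The other 10 had group means of at most 0.32 FPKM, and Fshr, Cyp11a1, Ptx3 and Tnfaip6 were at 0 in the WT libraries. Of these 10, Ptgs2 was higher in each Esrp1-KO library than in each WT library, as in 3.28% of genes under the filter. Its level was 0.316 ± 0.13 FPKM in Esrp1-KO and 0.0751 ± 0.068 FPKM in WT. Inhba, Star, Has2, Foxl2 and those at 0 in WT also had higher means in Esrp1-KO, with overlapping groups. Amhr2 had a lower mean in Esrp1-KO, also with overlap. Immune cell markers summed to 1.95 to 12.2 FPKM in Esrp1-KO and 1.20 to 2.25 FPKM in WT libraries, and the top value was Esrp1-KO replicate 3, with Lyz2 at 5.44 and Cd68 at 3.50 FPKM. Of the 12 immune markers, 2 were tested, and H2-Aa passed. It was higher in each Esrp1-KO library than in each WT library, as in 13.5% of genes tested. Its level was 1.62 ± 0.34 FPKM in Esrp1-KO and 0.811 ± 0.12 FPKM in WT (SD, n = 4 each, limma adjusted p = 0.0124). H2-Ab1 and Cd74 were above 0 in Esrp1-KO replicate 3 alone, and Csf1r had a lower mean in Esrp1-KO than in WT. The part of these markers in the results below was not tested. In a pooled tube, fewer eggs holding a transcript and less of it per egg cannot be told apart.

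Of the 10 genes, 7 averaged 1 FPKM or more across the 8 libraries and were tested with limma on log2(FPKM + 1), adjusted over all 8021 genes tested. Trpm7 and Atp2a2 rose, Itpr2 and Atp2b1 fell, and 3 did not pass an adjusted p of 0.05. That is 4 of 7, in a comparison in which 36.9% of all genes tested passed, 13.9% higher and 23.1% lower in Esrp1-KO. The libraries of the genotypes did not overlap for these 4 genes, and for 36.8% of all genes tested. The median log2 fold change was −0.08 over the 7 genes and −0.06 over all genes tested. The balance of directions over all genes depended on scaling, with 1111 higher and 1850 lower as deposited, 1598 and 1436 with TMM, 1475 and 1535 with quantile normalization, 1551 and 1467 with median-ratio scaling, and 951 and 2060 with a common total of nuclear genes. TMM moved the median of all genes by 0.12 and median-ratio scaling by 0.11 on the log2 scale. Relative to that median, Trpm7 stood 0.91 to 0.93 above it under the scalings tried, Atp2a2 0.53 to 0.68 above it, and Itpr2 and Atp2b1 below it (−0.52 to −0.49 and −0.31 to −0.28).

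**Figure D1:**
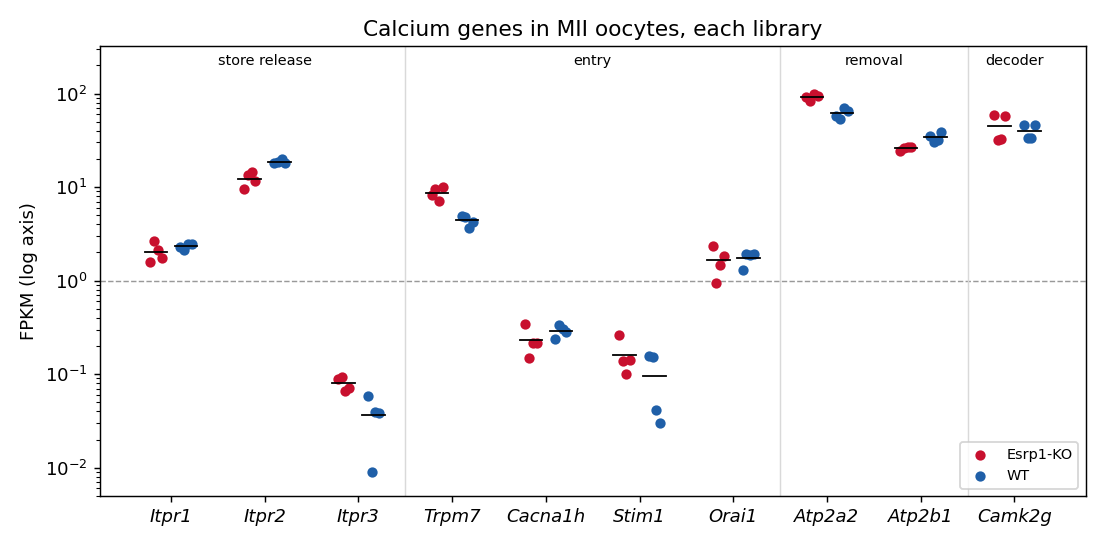
Level of each calcium gene in each library, in FPKM on a log axis. Points are libraries, Esrp1-KO left and WT right (4 each), bars are group means, and the dashed line is the filter of 1 FPKM. Only Itpr2, Itpr3, Trpm7, Atp2a2 and Atp2b1 have groups that do not overlap.

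The order of the levels was the same in both genotypes: Atp2a2, Camk2g, Atp2b1, Itpr2, Trpm7, Itpr1, Orai1, Cacna1h, Stim1 and Itpr3. The plot of the levels by library shows a span from 92.6 to 0.0800 FPKM in Esrp1-KO means and from 61.4 down to 0.0365 FPKM in WT means. Some neighbours in that order were not separated by their ranges. In Esrp1-KO libraries these were Itpr2 and Trpm7, Itpr1 and Orai1, and Cacna1h and Stim1. In WT libraries they were Camk2g and Atp2b1, and Stim1 and Itpr3. Itpr1 exceeded Orai1 in 2 of the 4 Esrp1-KO libraries, but in all 4 WT libraries.

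**Figure D2:**
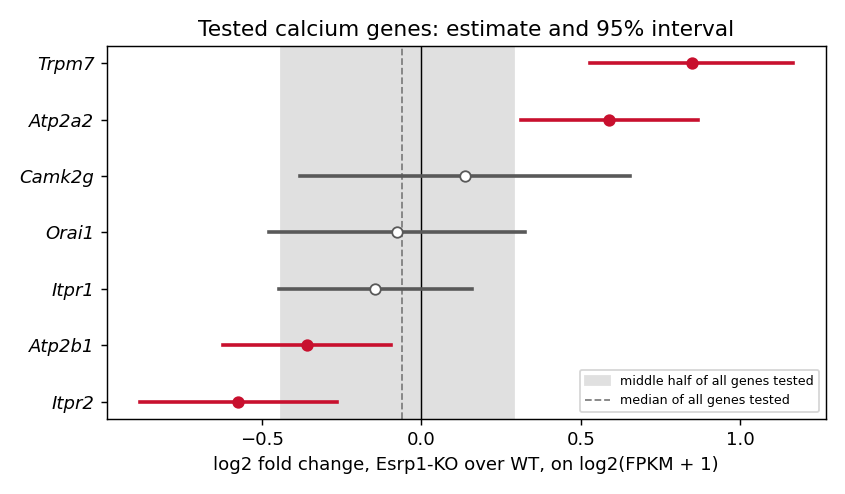
Log2 fold change of the 7 tested genes, Esrp1-KO over WT, on the log2(FPKM + 1) scale. Points are limma estimates, filled where the adjusted p is below 0.05, lines are 95% intervals, the grey band runs from the first to the last quartile of all genes tested (−0.44 to 0.29) and the dashed line is their median (−0.06). Trpm7 and Atp2a2 lie above the band, Itpr2 lies below it and Atp2b1 lies inside it.

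Among the store release channels, the most abundant IP3 receptor transcript fell while the next did not pass the test. Itpr2 (ENSMUSG00000030287, IP3 receptor 2; GRCm38 chromosome 6, 146108299 to 146502223, minus strand) had 9.61, 13.6, 14.4 and 11.8 FPKM in Esrp1-KO libraries 1 to 4, against 18.0, 18.6, 20.1 and 17.9 FPKM in WT libraries 1 to 4. All Esrp1-KO libraries lay below all WT libraries, as in 23.3% of all genes tested. The means were 12.3 ± 2.11 FPKM in Esrp1-KO and 18.7 ± 1.01 FPKM in WT (SD, n = 4 each), resting on 4602 to 6088 reads per Esrp1-KO library and 6886 to 8382 per WT library. On the log2 scale Itpr2 changed by −0.57 ± 0.14 (SE, 95% interval −0.88 to −0.26, limma adjusted p = 0.00956). In both genotypes its level in replicates 1 and 4 lay below that in replicates 2 and 3, as in 10.3% of genes tested. Within replicates 1 and 4 alone its means were 10.7 FPKM in Esrp1-KO and 18.0 FPKM in WT, and within replicates 2 and 3 alone 14.0 and 19.4 FPKM, where the log2 fold change was −0.44 and no longer passed (limma adjusted p = 0.116, the highest of 23 alternatives, the lowest being 0.00433).

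Itpr1 (ENSMUSG00000030102; chromosome 6, 108213096 to 108551109, plus strand) had 1.60, 2.63, 2.10 and 1.77 FPKM in Esrp1-KO libraries and 2.27, 2.12, 2.46 and 2.44 FPKM in WT libraries. The groups overlapped, since Esrp1-KO replicate 2 was the highest of all 8. Its log2 fold change was −0.14 ± 0.14 (SE, 95% interval −0.45 to 0.16, limma adjusted p = 0.433). Itpr3 (ENSMUSG00000042644; chromosome 17, 27057304 to 27122223, plus strand) was the lowest of the set, with 0.0894, 0.0938, 0.0660 and 0.0708 FPKM in Esrp1-KO libraries, against 0.0590, 0.00889, 0.0395 and 0.0384 FPKM in WT libraries. Each Esrp1-KO value lay above each WT value, as in 3.28% of the 16839 genes under the filter, and 4 against 4 libraries cannot give a smaller two-sided p than its unadjusted 0.0286 (exact permutation). Its reads could not be worked out from the FPKM.

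Per length, Itpr2 was therefore the leading IP3 receptor transcript in these eggs in both genotypes. The ratio of Itpr2 to Itpr1 was 5.16 to 6.82 in Esrp1-KO libraries and 7.36 to 8.78 in WT libraries, with no overlap. Itpr1 made up 14.0 ± 1.55% of the summed FPKM of the IP3 receptors in Esrp1-KO and 11.1 ± 0.71% in WT (SD, n = 4 each). That share was higher in each Esrp1-KO library, by 2.95 percentage points on average (exact two-sided permutation p = 0.0286, 0.0857 adjusted over the 6 family shares computed).

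Among the entry channels, Trpm7 had the largest log2 fold change of the 7 tested genes. Trpm7 (ENSMUSG00000027365; chromosome 2, 126791565 to 126876230, minus strand) encodes a channel fused to a kinase that passes calcium, magnesium and zinc. It had 8.31, 9.50, 7.08 and 10.1 FPKM in Esrp1-KO libraries, against 4.91, 4.81, 3.64 and 4.23 FPKM in WT libraries. The lowest Esrp1-KO library was above the highest WT library, as in 13.5% of genes tested. Its means were 8.74 ± 1.33 FPKM in Esrp1-KO and 4.40 ± 0.59 FPKM in WT (SD, n = 4 each), on 2297 to 3224 and 1160 to 1465 reads per library. The log2 fold change was 0.85 ± 0.14 (SE, 95% interval 0.53 to 1.17, limma adjusted p = 0.00141), and 94.5% of all genes tested had a smaller or more negative value. Within replicates 2 and 3 alone the fold change was of like size, at 0.83, with an adjusted p of 0.0527 (limma), the highest of 23 alternatives, whose lowest was 0.000434.

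The closest relative of Trpm7 moved the other way. Trpm6, the other channel of the family with a kinase domain, had 0.304, 0.222, 0.236 and 0.337 FPKM in Esrp1-KO libraries, against 1.53, 2.02, 2.24 and 2.33 FPKM in WT libraries. The groups did not overlap, as in 23.3% of all genes tested in this direction. The Esrp1-KO mean was 0.135 of the WT mean (log2 fold change −1.24 ± 0.13, limma adjusted p = 0.00011). On log2(FPKM + 1) the change comes out smaller than that ratio of means. Trpm6 passed the expression filter only through its WT libraries, and its reads could not be worked out from the FPKM. The ratio of Trpm7 to Trpm6 was 32.5 ± 6.95 in Esrp1-KO and 2.26 ± 0.71 in WT libraries (SD, n = 4 each). In Esrp1-KO libraries that ratio divides by 0.222 to 0.337 FPKM, so its size is uncertain.

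Cacna1h (ENSMUSG00000024112; chromosome 17, 25374285 to 25433783, minus strand), the T-type channel CaV3.2, was under the filter, with 0.342, 0.148, 0.218 and 0.217 FPKM in Esrp1-KO libraries and 0.237, 0.332, 0.306 and 0.283 FPKM in WT libraries. The highest value and the 3 lowest were all Esrp1-KO libraries, so the groups overlapped (exact two-sided permutation p = 0.257, n = 4 each). It rested on 36 to 108 reads per Esrp1-KO library and 61 to 84 per WT library. Its T-type relatives were lower still, with Cacna1i at 0.0948 ± 0.020 FPKM in Esrp1-KO and 0.0433 ± 0.032 FPKM in WT (exact two-sided permutation p = 0.0571, n = 4 each).

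**Figure D3:**
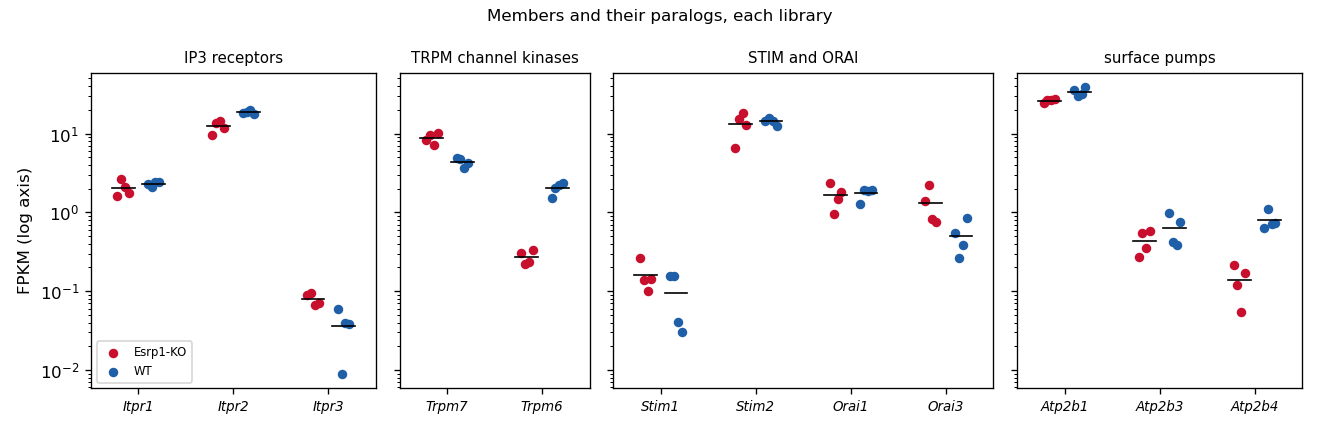
Members of the set beside their relatives in each library, in FPKM on a log axis; points are libraries, Esrp1-KO left and WT right (4 each), and bars are group means. Trpm6 and Atp2b4 are lower in each Esrp1-KO library than in each WT library, and Stim2 exceeds Stim1 in both genotypes.

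The store-operated pair did not pass a test. Stim1 (ENSMUSG00000030987; chromosome 7, 102267806 to 102437319, plus strand), the calcium sensor of the endoplasmic reticulum, had 0.265, 0.139, 0.101 and 0.143 FPKM in Esrp1-KO libraries and 0.157, 0.154, 0.0411 and 0.0300 FPKM in WT libraries. Esrp1-KO replicate 1 was the highest, and the rest overlapped (exact two-sided permutation p = 0.286, n = 4 each; 30 to 89 reads per Esrp1-KO and 9 to 43 per WT library). Its relative Stim2 was far more abundant, at 13.2 ± 4.93 FPKM in Esrp1-KO and 14.2 ± 1.40 FPKM in WT (SD, n = 4 each; log2 fold change −0.18, limma adjusted p = 0.623). Esrp1-KO replicate 1 was the lowest Stim2 library, at 6.51 FPKM, and Stim1 made up 1.62 ± 1.55% of both genes in Esrp1-KO and 0.644 ± 0.44% in WT.

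Orai1 (ENSMUSG00000049686; chromosome 5, 123015074 to 123030456, plus strand), the pore that STIM proteins open, had 2.34, 0.945, 1.47 and 1.82 FPKM in Esrp1-KO libraries and 1.29, 1.93, 1.86 and 1.93 FPKM in WT libraries. The Esrp1-KO libraries spanned the WT range, with the highest and the lowest value of all 8. Its log2 fold change was −0.08 ± 0.18 (SE, 95% interval −0.48 to 0.32, limma adjusted p = 0.769), on 54 to 174 reads per Esrp1-KO and 78 to 128 per WT library, and its sign turned with scaling. Orai3 was listed at 1.31 ± 0.68 FPKM in Esrp1-KO and 0.508 ± 0.25 FPKM in WT, with overlapping groups (exact two-sided permutation p = 0.0857, n = 4 each). Orai1 made up 56.6 ± 18.3% of the Orai genes in Esrp1-KO and 77.6 ± 9.29% in WT, a difference of −21.0 percentage points (exact two-sided permutation p = 0.0857, 0.171 adjusted over the 6 shares).

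Both pumps passed the test, in opposite directions, Atp2b1 less firmly than Atp2a2. Atp2a2 (ENSMUSG00000029467; chromosome 5, 122453513 to 122502225, minus strand) encodes SERCA2, which refills the endoplasmic reticulum, and it was the most abundant gene of the set. It had 91.0, 84.1, 99.8 and 95.3 FPKM in Esrp1-KO libraries, against 57.1, 53.2, 69.4 and 65.9 FPKM in WT libraries. The groups did not overlap, and replicate 2 was the lowest and replicate 3 the highest library in each genotype. The means were 92.6 ± 6.68 FPKM in Esrp1-KO and 61.4 ± 7.53 FPKM in WT (SD, n = 4 each), on 12746 to 17904 and 8093 to 11887 reads per library. Its log2 fold change was 0.59 ± 0.12 (SE, 95% interval 0.31 to 0.87, limma adjusted p = 0.00489). Within replicates 2 and 3 alone it was 0.58, with an adjusted p of 0.0874 (limma), the highest of 23 alternatives, whose lowest was 0.00196. Its relative Atp2a1 had group means of 0.00505 FPKM in Esrp1-KO and 0.00273 FPKM in WT, and Atp2a3 was not analysed here.

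Atp2b1 (ENSMUSG00000019943; chromosome 10, 98914406 to 99026143, plus strand) encodes PMCA1, which moves calcium out across the plasma membrane. It had 24.5, 26.5, 26.5 and 27.0 FPKM in Esrp1-KO libraries, against 35.5, 30.1, 31.6 and 38.5 FPKM in WT libraries. The highest Esrp1-KO library was below the lowest WT library, and the Esrp1-KO libraries lay close together, at 26.1 ± 1.13 FPKM against 33.9 ± 3.82 FPKM in WT (SD, n = 4 each). Its log2 fold change was −0.36 ± 0.12 (SE, 95% interval −0.62 to −0.10, limma adjusted p = 0.0369). That call was the least firm of the set. It was lost in 7 of the 8 fits that left out a library, all but the one without WT replicate 2, with log2 fold changes between −0.41 and −0.30 and adjusted p-values between 0.0322 and 0.113 (limma). With TMM the fold change was −0.21 (limma adjusted p = 0.165). It was −0.51 in replicates 1 and 4 (adjusted p = 0.0525) and −0.21 in replicates 2 and 3 (adjusted p = 0.386, limma). Over all 23 alternatives the adjusted p ran from 0.0139 to 0.386.

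A second surface pump was lower as well. Atp2b4, which encodes PMCA4, had 0.215, 0.121, 0.0541 and 0.170 FPKM in Esrp1-KO libraries, against 0.625, 1.09, 0.713 and 0.728 FPKM in WT libraries. The groups did not overlap, as in 6.49% of genes under the filter for this direction (0.0286 by exact two-sided permutation, again the lowest value this design allows). Atp2b1 remained the main surface pump transcript, at 97.8 ± 0.53% of the family's FPKM in Esrp1-KO and 96.0 ± 0.61% in WT (difference 1.89 percentage points, exact two-sided permutation p = 0.0286, 0.0857 adjusted over the 6 shares). The ratio of Atp2a2 to Atp2b1 was 3.72, 3.17, 3.76 and 3.53 in Esrp1-KO libraries, against 1.61, 1.77, 2.20 and 1.71 in WT libraries. A ratio within a library does not change with a common scaling factor. That its groups did not overlap follows from the levels of both pumps given above, so it is no further result.

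Smart-seq2 primes on poly(A) tails, and eggs change the tails of stored messages through the cytoplasmic polyadenylation element, so the 3′ ends of both pump transcripts are shown. Of the 10 genes, Atp2a2 and Atp2b1 alone held TTTTAT or TTTTAAT, searched on the transcript strand, in the last 100 bases of the M21 coding transcript that its APPRIS tag ranks first (the longest where tied). These letters stood in 23.4% of the 6573 tested genes with a 3′ UTR of at least that length. The sites below are in GRCm38, 5′ to 3′ on the gene's strand, with the element or the polyadenylation signal in capitals.
Atp2a2 element (chr5:122456412-122456441, minus): atgtctaatgtaTTTTATtgtaacagacat
Atp2a2 signal (chr5:122456340-122456369, minus): gtttaaaagaaaAATAAAacattttaaatg
Atp2b1 element (chr10:99026057-99026086, plus): agccactgagccTTTTATtatttgtctatt
Atp2b1 signal (chr10:99026103-99026132, plus): cttaactcatttAATAAAtatactgtttat
Trpm7 signal (chr2:126791569-126791598, minus): tctttaaaagaaATTAAAtttattcttgtt
Between the element and the end of the transcript searched lay 84 bases in Atp2a2, which rose, and 69 bases in Atp2b1, which fell. The annotated Atp2a2 gene reaches further on its strand, to 122453513, and other annotated ends were not searched. Trpm7 carried the variant signal ATTAAA, followed by 16 bases up to its annotated end. The Itpr2 transcript searched had a 3′ UTR of 191 bases, and neither motif was in its last 100 bases. AATAAA or ATTAAA stood in 83.9% of the 6573 genes. A match is a string of letters, and tail lengths were not measured.

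The calcium decoder did not separate the genotypes but followed the replicate number. Camk2g (ENSMUSG00000021820; chromosome 14, 20734875 to 20794088, minus strand) had 58.3, 32.2, 32.3 and 57.2 FPKM in Esrp1-KO libraries and 45.6, 33.9, 33.2 and 45.9 FPKM in WT libraries. Replicates 1 and 4 were above replicates 2 and 3 in both genotypes, as in 14.7% of genes tested. In replicates 1 and 4 the means were 57.8 FPKM in Esrp1-KO and 45.8 FPKM in WT (log2 fold change 0.33, limma adjusted p = 0.110). In replicates 2 and 3 they were 32.3 FPKM in Esrp1-KO and 33.5 FPKM in WT (log2 fold change −0.05, limma adjusted p = 0.832). Over all 8 libraries the log2 fold change was 0.14 ± 0.23 (SE, 95% interval −0.38 to 0.66, limma adjusted p = 0.678), an interval that leaves room for changes of either sign. What set replicates 1 and 4 apart is not given in the labels. Camk2g was 99.8% of the summed FPKM of the CaMKII genes in both genotypes, since Camk2a, Camk2b and Camk2d had group means of at most 0.0551 FPKM.

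**Figure D4:**
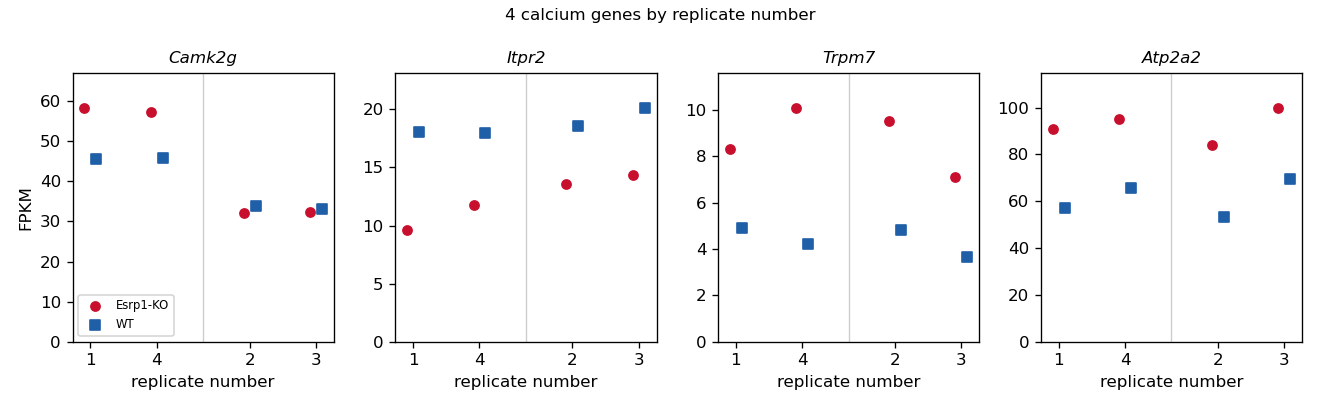
FPKM of Camk2g, Itpr2, Trpm7 and Atp2a2 by replicate number, replicates 1 and 4 left of the grey line and 2 and 3 right of it; circles are Esrp1-KO and squares WT libraries. Camk2g is high in replicates 1 and 4 of both genotypes, while for the other genes the genotypes stay apart at every number.

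The rest of the pathway was described through 5 lists with 123 genes, of which 118 were in the files and 50 were tested. Of these, 7 rose, 14 fell and 29 did not pass, beside 13.9% higher and 23.1% lower over all genes, and the median log2 fold change was 0.03. None of the 21 calls was lost with the replicate number as a block or changed sign in any alternative. In 13 the call held in all 8 fits that left out a library and under all 4 other scalings, and the other 8 were less firm. The expression filter was the same in all these fits. Among the 21 calls, Trpm6, Plcb4 and Ppp3ca passed that filter only through WT libraries, and Plcg2 and Ppp3cb only through Esrp1-KO libraries.

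Of 7 tested genes that make or break down IP3, 1 rose and 2 fell (median −0.25). Plcg2, a phospholipase C acting below tyrosine kinases, rose to 4.07 ± 0.46 FPKM in Esrp1-KO, against 0.981 ± 0.26 FPKM in WT (log2 fold change 1.36, limma adjusted p = 8.9e-05). Plcb4, a form driven by G proteins, was at 0.608 ± 0.077 FPKM in Esrp1-KO and 1.99 ± 0.25 FPKM in WT (−0.89, adjusted p = 0.000423, limma). Plce1, a form regulated by small GTPases, was at 5.55 ± 0.67 FPKM in Esrp1-KO and 9.54 ± 0.56 FPKM in WT (−0.69, adjusted p = 0.00167, limma). The sperm's own phospholipase, Plcz1, was not analysed here.

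Of 8 tested genes for other release channels, store proteins and regulators of IP3 receptors, 2 rose and 2 fell (median 0.06). Calr, the calcium-binding chaperone calreticulin, was at 80.0 ± 16.8 FPKM in Esrp1-KO and 52.8 ± 4.08 FPKM in WT (log2 fold change 0.57, limma adjusted p = 0.0151). Hspa5, the chaperone BiP of the same compartment, was at 18.1 ± 2.76 FPKM in Esrp1-KO and 29.9 ± 1.51 FPKM in WT (−0.70, adjusted p = 0.00246, limma). Erp44, which binds IP3 receptor 1 inside the store, rose by 0.43 (limma adjusted p = 0.0440), and Tmco1, a channel that lets calcium out of an overfilled store, changed by −0.49 (adjusted p = 0.0371, limma). Both were less firm, each lost in 6 of the 8 fits without a library, with adjusted p up to 0.113 for Erp44 and 0.0946 for Tmco1 (limma).

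Of 5 tested entry genes outside the set, 3 fell and 2, Stim2 and Saraf, did not pass (median −0.44), with Trpm6 and Stim2 described above. Trpc4, a receptor-operated cation channel, was at 3.83 ± 0.78 FPKM in Esrp1-KO and 5.79 ± 0.32 FPKM in WT (log2 fold change −0.50, limma adjusted p = 0.0160). Cacna1d, an L-type channel, was at 1.01 ± 0.094 FPKM in Esrp1-KO and 1.76 ± 0.47 FPKM in WT (−0.44, adjusted p = 0.0430, limma). Both were less firm, Trpc4 under TMM and Cacna1d in 7 of the 8 fits without a library (adjusted p up to 0.115, limma). The other 22 of the 27 listed genes were under the filter.

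Of 12 tested pumps, exchangers and genes of mitochondrial calcium uptake, 2 rose and 4 fell (median −0.01), and the mitochondrial ones held the largest changes. Mcub, the subunit that weakens the mitochondrial calcium uniporter, rose to 71.5 ± 19.6 FPKM in Esrp1-KO, against 23.3 ± 13.0 FPKM in WT (log2 fold change 1.72, limma adjusted p = 0.00535). The pore subunit Mcu did not pass, at 50.3 ± 7.99 FPKM in Esrp1-KO and 53.9 ± 11.6 FPKM in WT. Mcur1, a regulator of the uniporter, fell to 4.05 ± 0.66 FPKM in Esrp1-KO, against 9.36 ± 1.43 FPKM in WT (−1.04, adjusted p = 0.000497, limma). Vdac2, a channel of the outer mitochondrial membrane, fell to 2.64 ± 0.49 FPKM in Esrp1-KO, against 7.08 ± 1.17 FPKM in WT (−1.15, adjusted p = 0.000401, limma). Micu2, a gatekeeper of the uniporter, changed by −0.43 (limma adjusted p = 0.0304) and was less firm, lost in 4 of the 8 fits without a library (adjusted p up to 0.0722, limma). Atp2c2, a calcium pump of the secretory pathway, fell to 1.96 ± 0.15 FPKM in Esrp1-KO, against 4.64 ± 0.87 FPKM in WT (−0.92, adjusted p = 0.000743, limma).

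Of 18 tested decoders and effectors of egg activation, 2 rose, 3 fell and 13 did not pass (median 0.14). Slc39a10, a zinc importer of the plasma membrane, fell to 83.7 ± 5.77 FPKM in Esrp1-KO, against 141 ± 3.44 FPKM in WT (log2 fold change −0.75, limma adjusted p = 0.000476). The calcineurin catalytic subunits went apart, with Ppp3ca at 0.766 ± 0.29 FPKM in Esrp1-KO and 2.04 ± 0.56 FPKM in WT (−0.78, adjusted p = 0.00711, limma) and Ppp3cb at 1.59 ± 0.60 FPKM in Esrp1-KO and 0.688 ± 0.19 FPKM in WT (0.60, adjusted p = 0.0271, limma). Ppp3cb was less firm, lost in 5 of the 8 fits without a library (adjusted p up to 0.0682). Calm2, one of the genes for calmodulin, had 18.8, 33.5, 55.0 and 45.5 FPKM in Esrp1-KO libraries, against 9.92, 20.3, 13.6 and 8.34 FPKM in WT libraries (1.45, adjusted p = 0.00855, limma). Its groups overlapped through Esrp1-KO replicate 1 and WT replicate 2, and 9.72% of its 50-base stretches also occur in other genes, so its count is less certain. Wee2 and Fbxo43, which act on the meiotic arrest, did not pass. Camk1d changed by −0.49 (adjusted p = 0.0286, limma) and was less firm, lost in 4 of the 8 fits without a library (adjusted p up to 0.0831, limma).

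**Figure D5:**
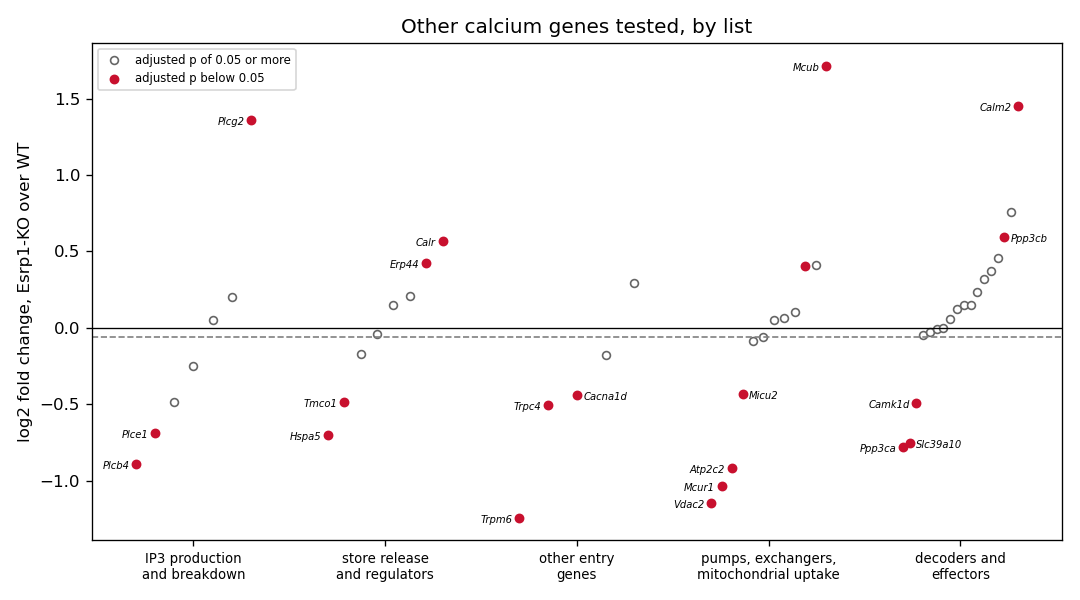
Log2 fold change of the 50 tested genes of the 5 pathway lists, Esrp1-KO over WT. Filled points have a limma adjusted p below 0.05, and those named in the text carry their names; the dashed line is the median of all genes tested (−0.06). Each list but the entry genes holds filled points on both sides of 0.

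For each changed member, the 3 tested genes with the most similar log2(FPKM + 1) over the 8 libraries were found by Pearson's r, which here includes the difference between genotypes as well as library effects. Those for Itpr2 were Dcun1d1 (r = 0.996), mt-Co3 (0.991) and Gpalpp1 (0.988). Those for Trpm7 were Mgat5 (0.994), Ceacam10 (0.992) and Dnajc5b (0.981). Those for Atp2a2 were Ctcf (0.972), Mdh1 (0.970) and Slc6a20a (0.970), and those for Atp2b1 were Klf7 (0.989), Gpd2 (0.981) and Gm7972 (0.980). Gpd2 and Gm7972 passed the expression filter only through WT libraries, and Ceacam10 only through Esrp1-KO libraries. The genes named here have the highest of 8021 values per member and are given as a description.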

How the data were processed

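The deposited values are FPKM per Ensembl gene, which the authors computed on the GRCm38 build, per the submitters' processing notes; no aligner, counting tool or annotation is named in the labels or file headers. Of 24860 genes, 24812 had a symbol in GENCODE M21, which also gave positions. FPKM relate reads to gene length and library total, so a few abundant genes shift all others. For 89.9% to 90.5% of values per library, FPKM times exon length was a whole number of reads within 0.02 of a read, which gave the read totals.

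The 8021 genes that averaged 1 FPKM or more entered limma 3.58.1 (R 4.3.3), fitted to log2(FPKM + 1) (intensity trend, genotype only, two-sided, Benjamini-Hochberg over all genes tested, threshold 0.05). On it, fold changes of genes near 1 FPKM come out too small. Of the genes called above, Trpm6, Plcb4 and Ppp3ca passed the filter only through WT libraries. Plcg2, Ppp3cb and H2-Aa passed it only through Esrp1-KO libraries. Genes under the filter, and shares within families, were compared by exact permutation over the 70 arrangements. Alternatives were other pseudocounts, filters and scalings, voom on recovered reads, the replicate block, the replicate split and leaving out each library. Among the 10 genes, at most 3.93% of 50-base stretches (Atp2a2) occur in other genes, and at most 2.58% of exon bases (Itpr3) overlap an opposite strand. Strand use in counting is not stated.

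Deviations of same-numbered libraries from their group means correlated at r of 0.226 to 0.317 in all 4 pairs, against −0.407 to 0.402 for unlike numbers. The highest r, 0.402, was for Esrp1-KO replicate 1 with WT replicate 4, above every same-numbered pair. The numbers come from the sample titles. The 10 genes and the lists were chosen with earlier results of these data known. Named are the 10 genes, their relatives and up to 5 genes with the smallest p past the threshold per list. Also named are the 3 closest patterns per changed gene and the leading markers of other cells. Saraf, Mcu, Wee2, Fbxo43, the oocyte markers and the other markers of cumulus, granulosa and immune cells were named after their values were seen. Some genes of the lists are counted but not reported by name here.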

Additional observations from a re-analysis of the deposited data

Results flagged for a closer look

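In groups of 4 libraries, 32 were checked for a single value far from the other 3, and 3 were found, where chance gives about 1 in 20. Orai1 was lowest in WT replicate 1, at 1.29 FPKM, while the other WT libraries lay between 1.86 and 1.93 FPKM. The share of Stim1 in Stim1 plus Stim2 was highest in Esrp1-KO replicate 1, at 3.92%, against 0.554% to 1.09% in the other Esrp1-KO libraries; without it the difference between genotypes was 0.207 percentage points, against 0.974 with it. The share of Atp2a2 among the SERCA genes was lowest in WT replicate 1, at 99.98%, which rests on 1 read of Atp2a1.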

How the results depend on the processing

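Itpr2, Trpm7 and Atp2a2 kept direction and call in 22 of 23 alternatives each and lost the call with replicates 2 and 3 alone, where each genotype has 2 libraries (−0.44, 0.83 and 0.58 in that order of genes). Atp2b1 kept its direction in all 23 but lost the call in 13. The cause was not tested. With the replicate number as a block, the count of changed calcium genes stayed at 2 higher and 2 lower, the list counts were 8 and 15 and those of all genes 1376 and 2030; the block changed no other call named in the text, and the shares' differences are the same in pairs. The count of lower calcium genes was 1 with TMM, quantile and median-ratio scaling, with replicates 1 and 4 alone and without both replicates 1 (an alternative added after seeing the data), and 0 with replicates 2 and 3 alone, where that of higher ones was also 0. Leaving out single libraries gave 1 to 2 lower and 2 higher calcium genes, 10 to 13 lower and 4 to 7 higher list genes, and 1515 to 1816 lower and 896 to 1112 higher genes overall. List genes higher numbered 4 with no filter, 3 with replicates 1 and 4 and 4 with replicates 2 and 3; list genes lower numbered 5 at a mean of at least 5 FPKM, 9 with TMM, 8 with replicates 1 and 4 and 7 with replicates 2 and 3. Over all genes, 668 were higher and 996 lower at 5 FPKM (4290 tested, without Itpr1 and Orai1), 676 higher with replicates 1 and 4, and 584 higher and 905 lower with replicates 2 and 3. Signs turned for Orai1 (0.0174 with TMM, 0.0537 with quantile, 0.0091 with median-ratio scaling, 0.246 with replicates 1 and 4, −0.199 to 0.0618 leaving out single libraries), Itpr1 (0.032 with replicates 2 and 3) and Camk2g (−0.0538 with replicates 2 and 3, −0.0038 to 0.275 leaving out single libraries), none of which passed the test in the main comparison. Leaving out single libraries, the share differences were 2.24 to 3.38 percentage points for Itpr1, 1.66 to 2.10 for Atp2b1, 0.207 to 1.33 for Stim1, −25.6 to −12.0 for Orai1, −0.0505 to 0.0511 for Camk2g and −0.00518 to 0.00142 for Atp2a2. Cacna1h and Stim1 rest on 9 to 108 reads per library, so their values carry more counting error than those of the abundant genes.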

Other observations

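The letters TTTTAT or TTTTAAT stood in the last 100 bases of 16.2% of the 927 genes higher in Esrp1-KO, of 31.0% of the 1485 lower ones and of 22.2% of the 4161 that did not pass. The polyadenylation signal stood in 83.7%, 83.4% and 84.1% of the same sets. Genes are not independent replicates, and no test was made of these shares.

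The lowest ratio of Trpm7 to Trpm6 in Esrp1-KO libraries, 27.3, exceeded the highest in WT libraries, 3.22. That separation follows from Trpm7 being higher and Trpm6 lower in every Esrp1-KO library. The ratio of Atp2b1 to Atp2b4 was 114 to 490 in Esrp1-KO and 27.7 to 56.8 in WT libraries.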
